A study of Homo sapiens with 6 samples.

Results

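The complement system is a cascade of plasma and membrane proteins that tags and lyses cells. In the classical pathway C1q carries the serine proteases C1r and C1s, and C1r activates C1s, which cleaves C4 and C2. In the alternative pathway factor B, once cleaved by factor D, forms part of the enzyme that cleaves C3, the component on which all routes converge. Host cells hold the cascade in check with secreted inhibitors such as C1 inhibitor and factor I, and with the membrane proteins CD46, CD55 and CD59. The liver makes most of the soluble components, but fibroblasts, endothelial cells and many tumor cells also transcribe them, and cytokines such as interleukin-6 and the interferons are known inducers.

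The mRNA of 9 of these genes was examined among the 46427 genes counted in Hs578T, a triple-negative breast cancer cell line: C1R, C1S, C3, CFB, CFI, SERPING1, CD46, CD55 and CD59. They were taken by gene symbol, with earlier results of these data known. RNA-seq was performed on 3 libraries of Hs578T cells stably expressing a control shRNA (shCTRL) and 3 libraries of Hs578T cells stably expressing an shRNA against CCN3 (shCCN3, given in the methods as #2), both delivered by the retroviral vector pSUPER and selected with puromycin. The methods speak of selected clones without giving their number, and 1 knockdown line was sequenced, so loss of CCN3, the shRNA itself and differences between the selected lines cannot be told apart. The design text calls the 3 libraries of each group biological replicates without saying what was repeated, and p-values measure the spread between these libraries.

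The libraries held from 56159110 to 68393177 reads counted on genes, and values are given as CPM, reads scaled to library size with TMM factors. The mRNA of CCN3, a secreted matrix-associated protein and the target of the shRNA, averaged 101 ± 2.43 CPM in the control line and 47.0 ± 0.469 CPM after knockdown (n = 3, ± SD), a log2 fold change of -1.10 with an edgeR adjusted p = 1.34e-06. Of the markers of the labelled breast carcinoma cell, KRT18 was higher after knockdown (163 and 232 CPM, log2 fold change 0.51, edgeR adjusted p = 0.00172) and KRT8 lower (20.0 and 13.9 CPM, -0.52, edgeR adjusted p = 0.00221), while EPCAM, CDH1 and KRT19 had at most 12 reads in any library. The mesenchymal marker VIM was at 7778 CPM in the control line and 7064 CPM after knockdown, and of the 4 mesenchymal markers CDH2 alone passed the test, at 89.0 CPM against 162 CPM. Neither PGR nor ERBB2 passed, and ESR1 had at most 10 reads in any library. Of the markers of other cell types that make complement or could be present, CD3E, CDH5 and TTR had 0 reads in every library, ALB had at most 6 and PTPRC at most 13. The summed leukocyte markers fell from between 95.7 and 108 CPM in the shCTRL libraries to between 58.4 and 60.3 CPM in the shCCN3 libraries, almost wholly through CD68, a lysosomal protein that is not limited to leukocytes. Of the 6 leukocyte markers 3 were tested, of which 1 was lower and none higher with an adjusted p under 0.05. Of the 4 endothelial markers 2 were tested and 0 passed. Of the 4 hepatocyte markers only 1 was tested, SERPINA1, and it was higher, at 0.573 CPM after knockdown. Of all genes tested, 33.4% passed. The endothelial markers summed to 3.904 to 5.41 CPM in the shCTRL and 3.56 to 4.43 CPM in the shCCN3 libraries, and the hepatocyte markers to 0.287 to 0.422 CPM and 0.469 to 0.754 CPM. The part of these markers in the results was not tested. Replicate 2 of shCCN3 differed most from its group (chi-square per degree of freedom of 37.1 and 45.2 against the other shCCN3 libraries, where other pairs had 7.02 to 22.1), and without it 7229 in place of 5825 genes passed the test described below.

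Counts were compared with edgeR's quasi-likelihood test, and p-values were adjusted by the Benjamini-Hochberg method over the 17419 genes that passed the filter on low counts. All 9 complement genes passed this filter, with between 127 and 71690 reads in each library, which is far above a floor of 3 reads. Of the 9 genes, 4 were higher and 1 was lower in shCCN3 cells with an adjusted p under 0.05. This is 55.6% of the genes, where 33.4% of all genes tested passed in either direction, 16.2% higher and 17.3% lower. The 5 genes that passed were also those in which the libraries of the groups did not overlap, which held for 46.3% of all genes tested, 22.7% higher and 23.6% lower. The median log2 fold change of the 9 genes was 0.19, beside 0.01 for all genes tested. These shares describe 9 genes named with earlier results known and are no independent support. In cultured bulk cells, fewer cells making an mRNA and less of it per cell cannot be told apart.

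**Figure D1:**
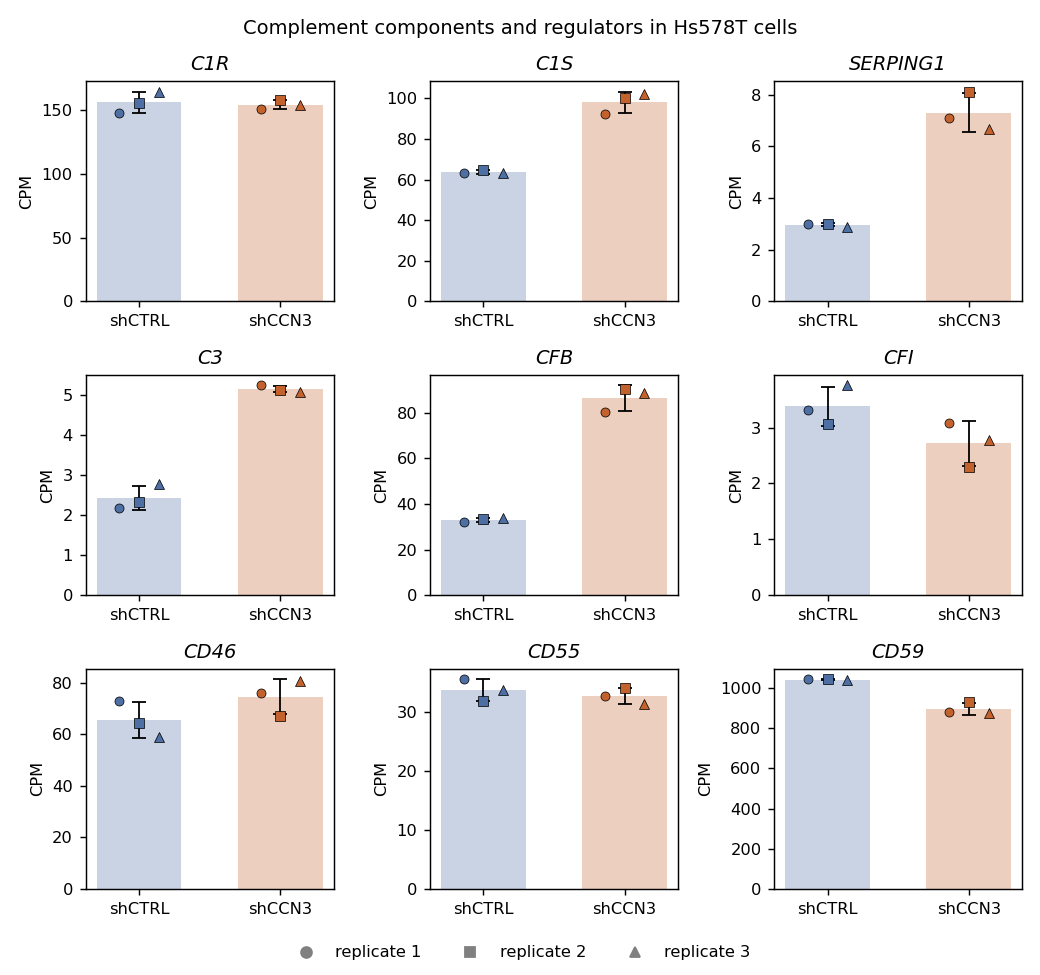
Normalized expression of each complement gene in CPM (y axis from 0) in the 3 shCTRL and 3 shCCN3 libraries; bars are means, error bars are SD (n = 3) and symbols are replicates 1 to 3. C1S, SERPING1, C3 and CFB lay higher in every shCCN3 library, CD59 lay lower in every one, and the groups overlapped for C1R, CFI, CD46 and CD55.

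Among the classical pathway proteases, C1S mRNA rose while no difference was called for C1R. C1R encodes the protease that activates C1s, and it stood at 148, 156 and 165 CPM in the shCTRL libraries and at 151, 158 and 154 CPM in the shCCN3 libraries. The shCCN3 values of C1R fell within the range of the shCTRL values, with a log2 fold change of -0.02 (95% interval -0.15 to 0.12, edgeR adjusted p = 0.857). C1S, which encodes the protease that cleaves C4 and C2, was at 63.2, 64.9 and 63.1 CPM in the shCTRL libraries and at 92.1, 100.3 and 102 CPM in the shCCN3 libraries. Every shCCN3 library was above every shCTRL library, and the log2 fold change of C1S was 0.62 (SE 0.061, edgeR adjusted p = 6.58e-05), a 1.54-fold rise.

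Both genes lie on chromosome 12 of GRCh38, C1S on the plus strand from 7060718 to 7071032 and C1R on the minus strand from 7080219 to 7092445. The ratio of C1S to C1R reads within a library needs no scaling between libraries. It was 0.428, 0.416 and 0.383 in the shCTRL libraries and 0.610, 0.635 and 0.662 in the shCCN3 libraries. The ratios did not overlap between the groups (exact permutation test of the log2 ratios, two-sided p = 0.1, the smallest p that 3 libraries against 3 allow). In the GENCODE annotation the span of C1S overlaps EMG1 on its own strand and LPCAT3 on the other, and whether the counting used the strand is not stated. EMG1 was at 47.0 CPM in shCTRL and 45.9 CPM in shCCN3 cells, and LPCAT3 at 31.4 and 21.5 CPM. The GENCODE span of C1R overlaps C1RL on its own strand, at 26.6 CPM in shCTRL and 26.7 CPM in shCCN3 cells. The part of shared reads in the values of C1S and C1R was not tested.

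SERPING1 encodes C1 inhibitor, the serpin that inactivates C1r and C1s. It was expressed at a low level, with 2.998, 2.98 and 2.89 CPM in the shCTRL libraries and 7.11, 8.12 and 6.66 CPM in the shCCN3 libraries. Every shCCN3 library was far above every shCTRL library. SERPING1 rose 2.47-fold, a log2 fold change of 1.30 (SE 0.115, edgeR adjusted p = 3.5e-05), and 3.60% of all genes tested had a log2 fold change as high. Relative to its target protease, SERPING1 had 0.0474, 0.0459 and 0.0458 reads per C1S read in the shCTRL libraries and 0.0772, 0.0809 and 0.0653 in the shCCN3 libraries, again without overlap (exact permutation test, two-sided p = 0.1).

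C3 and CFB, the substrate and the catalytic subunit of the alternative pathway convertase, were both more than 2-fold higher in shCCN3 cells. C3 was at 2.18, 2.32 and 2.77 CPM in the shCTRL libraries and at 5.25, 5.15 and 5.10 CPM in the shCCN3 libraries. All shCCN3 libraries lay close together and above the shCTRL libraries, and the log2 fold change of C3 was 1.09 (SE 0.129, edgeR adjusted p = 0.000209). CFB, which encodes factor B, was at 32.0, 33.3 and 33.7 CPM in the shCTRL libraries and at 80.2, 90.6 and 88.8 CPM in the shCCN3 libraries. CFB had the highest fold change of the 9 genes, 2.62-fold (log2 fold change 1.39, SE 0.068, edgeR adjusted p = 1.12e-06), and 3.28% of all genes tested had a log2 fold change as high. In the GENCODE annotation the span of C3 overlaps GPR108 on the same strand. GPR108 averaged 71.2 CPM in control and 76.8 CPM in knockdown libraries. In CPM this difference is larger than the 2.74 CPM by which C3 rose. In relative terms C3 rose more than GPR108, by 2.13-fold. The GENCODE span of CFB overlaps C2 on the same strand, at 0.703 and 1.19 CPM. In the RefSeq positions they do not overlap, as C2 ends at 31945672 and CFB starts at 31946095. The part of reads shared with these genes was not tested.

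CFI encodes factor I, the protease that inactivates C3b and C4b with the help of cofactors such as CD46. It was at 3.32, 3.06 and 3.75 CPM in the shCTRL libraries and at 3.08, 2.29 and 2.78 CPM in the shCCN3 libraries. Replicate 1 of shCCN3 reached into the shCTRL range, and the log2 fold change of CFI was -0.31 (95% interval -0.66 to 0.04, edgeR adjusted p = 0.156). For CFI, with 127 to 252 reads per library, this interval spans no change as well as a fall larger than that of CD59.

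The balance of C3 and CFB to CFI was followed as a ratio of reads within each library. There were 9.64, 10.9 and 8.98 CFB reads per CFI read in the shCTRL libraries and 26.1, 39.7 and 31.9 in the shCCN3 libraries. For C3 the ratio to CFI was 0.658, 0.760 and 0.738 in the shCTRL libraries and 1.71, 2.25 and 1.83 in the shCCN3 libraries. Neither ratio overlapped between the groups. The ratio of CFB to C3 moved less, from 13.7 ± 1.36 to 16.8 ± 1.30 (SD, n = 3 each), also without overlap. In all, 5 ratios were computed, chosen after the values of the genes had been seen, and each had p = 0.1 in the exact permutation test before and after Benjamini-Hochberg adjustment.

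**Figure D2:**
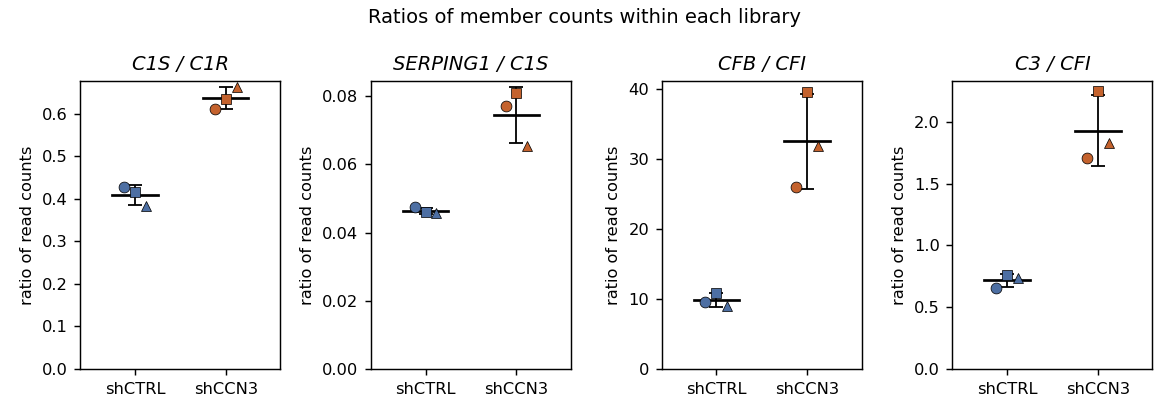
Ratios of read counts of 2 complement genes within each library (y axes from 0), with replicates as symbols (circle 1, square 2, triangle 3), the group mean as a line and the SD as an error bar (n = 3). The shCCN3 libraries lay above the shCTRL libraries in each of the 4 ratios shown, with CFB to CFI at 26.1 to 39.7 against 8.98 to 10.9.

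The membrane regulators CD46, CD55 and CD59 showed no rise that passed the test, and CD59 was lower. CD59 encodes a GPI-anchored protein that blocks assembly of the membrane attack complex. It was at 1043, 1045 and 1041 CPM in the shCTRL libraries and at 882, 932 and 877 CPM in the shCCN3 libraries. Every shCCN3 library was below every shCTRL library, and the log2 fold change of CD59 was -0.22 (SE 0.052, edgeR adjusted p = 0.0101), so that shCCN3 cells kept 0.860 of the shCTRL level. The call for CD59 was lost when replicate 2 of shCTRL was left out (log2 fold change -0.21, edgeR adjusted p = 0.0602). The fold change of CD59 was the smallest of those called among the 9 genes. In CPM, without regard to gene length, CD59 fell by 146, where CFB rose by 53.5 and C1S by 34.4. The exons of CD59 span 8214 bases and those of CFB 2862. Per kilobase of exon, CD59 went from 127 to 109 CPM and CFB from 11.5 to 30.2 CPM.

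CD55, the GPI-anchored decay accelerating factor that dissociates C3 convertases, was at 35.5, 31.8 and 33.7 CPM in the shCTRL libraries and at 32.7, 34.0 and 31.3 CPM in the shCCN3 libraries. The groups overlapped, with a log2 fold change of -0.04 (95% interval -0.20 to 0.11, edgeR adjusted p = 0.672). CD46, the membrane cofactor for factor I, was at 72.8, 64.5 and 58.9 CPM in the shCTRL libraries and at 75.9, 67.2 and 80.6 CPM in the shCCN3 libraries. The groups overlapped here too, with a log2 fold change of 0.19 (95% interval -0.02 to 0.40, edgeR adjusted p = 0.158). Replicate 2 of shCCN3 was the lowest of its group for CD46, and without it it was 0.26 (edgeR adjusted p = 0.0285). CD46 and CD55 lie near each other on chromosome 1, from 207752038 to 207795516 and from 207321678 to 207360966 of GRCh38.

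Levels of different genes were compared per kilobase of exon, with exon lengths taken from the GENCODE basic transcripts. In shCTRL cells CD59 was the most abundant at 127 CPM per kilobase, followed by C1R at 55.96, CD46 at 19.4, C1S at 17.4, CFB at 11.5, CD55 at 8.45, CFI at 1.43, SERPING1 at 1.19 and C3 at 0.461 CPM per kilobase. Of these neighbours in the order, only CD46 and C1S overlapped between their shCTRL libraries. In shCCN3 cells CFB stood at 30.2 CPM per kilobase, ahead of C1S at 26.8 and CD46 at 22.1 CPM per kilobase, and SERPING1 at 2.93 CPM per kilobase stood ahead of CFI at 1.15. C3 remained the lowest at 0.981 CPM per kilobase, and its shCCN3 libraries overlapped those of CFI. The order by length rests on an annotation that may not be the one used for counting.

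The rest of the pathway was examined with a list of 52 other complement genes, of which 13 passed the filter on low counts and 27 had 0 reads in all 6 libraries. Of the 13 genes tested, 4 were higher and 3 were lower in shCCN3 cells with an adjusted p under 0.05. This is 53.8% beside 33.4% of all genes tested (16.2% higher, 17.3% lower), and the median log2 fold change of the 13 genes was 0.0064. The 4 higher include the near-identical copies C4A and C4B, and C7, which passed the filter only through its shCCN3 reads. With at least 10 counts required in every library, C7 was not tested and 6 in place of 7 genes passed. The genes of C1q, the recognition subunit that carries C1r and C1s (C1QA, C1QB and C1QC), had 0 reads in every library, as did MBL2 and MASP2 of the lectin pathway.

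**Figure D3:**
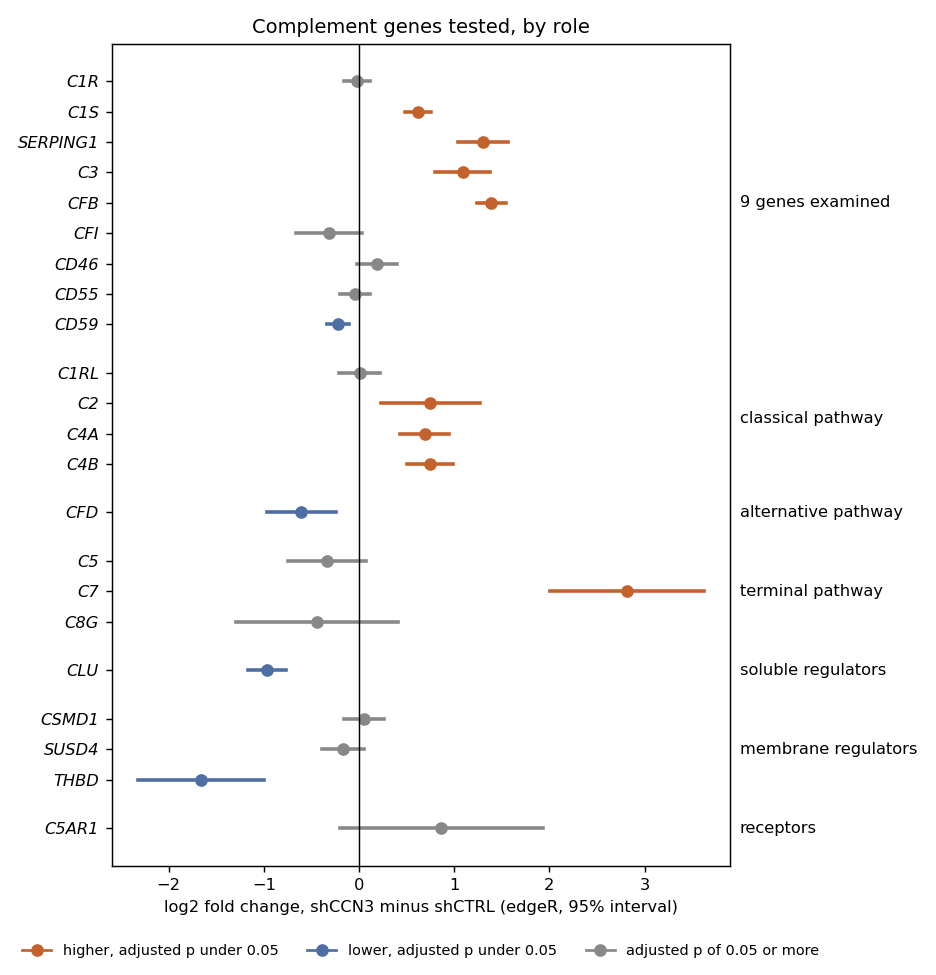
Log2 fold change (shCCN3 minus shCTRL, x axis) with its 95% interval from edgeR for the 9 complement genes and the 13 other complement genes tested, grouped by role; color gives the direction of genes with an adjusted p under 0.05. C1S, SERPING1, C3, CFB, C2, C4A, C4B and C7 lie to the right, and CD59, CFD, CLU and THBD to the left.

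C4A, C4B and C2, the substrates of C1s, were the 3 genes of the classical and lectin pathway list that rose, of 4 tested. Of all genes tested, 16.2% were higher. C4A averaged 6.69 ± 0.736 CPM in control and 10.8 ± 1.01 CPM in knockdown libraries (n = 3, ± SD), at a log2 fold change of 0.69 (edgeR adjusted p = 0.00137). C4B went from 5.61 ± 0.625 CPM to 9.42 ± 0.472 CPM, at 0.75 (edgeR adjusted p = 0.000656). C4A and C4B are near-identical copies, so how their reads divide between them is uncertain and their calls are not separate observations. C2, below 1 CPM on average and named after its values were seen, had a log2 fold change of 0.75 (edgeR adjusted p = 0.0331), and its call was lost when any library but replicate 3 of shCCN3 was left out. C1RL, a protease related to C1r, was at 26.6 CPM in shCTRL and 26.7 CPM in shCCN3 cells.

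In the alternative pathway CFD fell, and in the terminal pathway C7 had more reads in shCCN3 cells. CFD encodes factor D, the protease that cleaves factor B, and had 2.59, 2.79 and 2.65 CPM in the shCTRL libraries and 1.52, 2.07 and 1.69 CPM in the shCCN3 libraries. Its log2 fold change was -0.61 (edgeR adjusted p = 0.0174), and the call was lost without replicate 2 of shCTRL, without replicate 1 of shCCN3 or without replicate 3 of shCCN3, with adjusted p-values of 0.0669, 0.0653 and 0.053. C7, a subunit of the membrane attack complex named after its values were seen, had 5, 8 and 6 reads in the shCTRL libraries. It had 54, 30 and 47 reads in the shCCN3 libraries (log2 fold change 2.82). As C7 passed the filter on low counts only through its shCCN3 reads, its call is no independent support. C5 and C8G did not pass, with log2 fold changes of -0.33 and -0.44.

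Among the other regulators, CLU and THBD were lower in shCCN3 cells. CLU, which encodes clusterin, an inhibitor of the terminal complex, averaged 81.1 ± 6.12 CPM in control and 41.5 ± 4.07 CPM in knockdown libraries (n = 3, ± SD), with a log2 fold change of -0.97 (edgeR adjusted p = 3.78e-05). Of the other membrane regulators, THBD, which encodes thrombomodulin and was named after its values were seen, fell from 1.07 ± 0.219 to 0.340 ± 0.102 CPM (edgeR adjusted p = 0.00218), while CSMD1 and SUSD4 did not pass. The only receptor gene tested, C5AR1, did not pass either.

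The position of each gene was also considered. For each gene the median log2 fold change of the 24 nearest genes tested was taken. CFB lies on chromosome 6 from 31946095 to 31952084 of GRCh38, and its neighbours had a median of 0.38, close to the 0.34 of the 891 genes tested on that chromosome. The log2 fold change of CFB minus that median was 1.01. For C1S, C3 and SERPING1, on chromosomes 12, 19 and 11, the neighbours had medians of -0.02, 0.05 and 0.03. C2, C4A and C4B lie in the same stretch of chromosome 6 as CFB, and their log2 fold changes minus those of their neighbours were 0.38, 0.29 and 0.39. The neighbours of CLU and THBD had medians of -0.32 and -0.44. DNA was not measured, and the part of gene copy number in these values was not tested.

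Among the 9 complement genes, CFB was the only gene called higher that had a window in the RefSeq promoter table used here. Its promoter is shown, beside that of CFI and that of the most upstream start of CD59 for comparison. Windows were found for 6 of the 9 genes, and C1S, C3 and SERPING1 had none. Each line gives the bases just before the start site on the gene's strand, 5′ to 3′, on GRCh38.p14, at chr6:31945845-31946094 (plus strand) for CFB, chr4:109802000-109802249 (minus strand) for CFI and chr11:33736480-33736729 (minus strand) for CD59. Capitals mark letters that match the core of the interferon-stimulated response element (GAAA, any 2 bases, GAAA), a STAT site (TTCNNNGAA) or an NF-kB site (GGG, any 2 bases, TTTCC), searched on both strands.
CFB: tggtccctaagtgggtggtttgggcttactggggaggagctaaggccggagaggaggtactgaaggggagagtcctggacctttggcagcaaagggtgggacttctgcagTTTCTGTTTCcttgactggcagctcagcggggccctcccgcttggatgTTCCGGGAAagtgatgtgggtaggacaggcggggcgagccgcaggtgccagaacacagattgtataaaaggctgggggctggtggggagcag
CFI: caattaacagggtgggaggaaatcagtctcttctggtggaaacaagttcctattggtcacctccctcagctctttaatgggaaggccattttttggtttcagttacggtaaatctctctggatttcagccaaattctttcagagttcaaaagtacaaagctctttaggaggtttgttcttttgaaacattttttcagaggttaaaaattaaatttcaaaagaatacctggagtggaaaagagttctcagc
CD59: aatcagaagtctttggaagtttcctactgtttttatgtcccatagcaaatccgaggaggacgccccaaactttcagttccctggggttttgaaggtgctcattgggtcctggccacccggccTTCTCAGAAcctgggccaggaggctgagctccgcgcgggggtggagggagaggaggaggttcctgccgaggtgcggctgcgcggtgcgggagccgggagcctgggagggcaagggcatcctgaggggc

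The CFB window held the letters TTTCTGTTTC, which match the interferon-stimulated response element core on the minus strand at positions -140 to -131 from the start, and TTCCGGGAA, which match the STAT site at positions -92 to -84. The first motif occurred in 3.57% and the second in 7.66% of the 35116 promoter windows of 300 bases in the table. The NF-kB site, found in 1.91% of windows, matched in none of the windows of the 6 genes. A STAT match also stood in 1 of 2 windows of C1R and in the 2 upstream windows of CD59, which overlap, so CFB was the only 1 of the 6 genes with the interferon-stimulated response element core. The windows of CFI, CD46 and CD55 held no match. These are matches of letters within a short window, with no measurement of binding.

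Cytokines and transcription factors known to act on complement genes were examined with a list of 17 genes, of which 14 passed the filter, 9 were higher and 1 was lower in shCCN3 cells with an adjusted p under 0.05. This is 71.4% of those tested, beside 33.4% of all genes tested (16.2% higher, 17.3% lower). The 9 higher include TNF, which passed the filter only through its shCCN3 reads and was not tested when at least 10 counts were required in every library. IL6, which encodes interleukin-6, averaged 5.996 ± 0.470 CPM in control and 16.8 ± 0.913 CPM in knockdown libraries (n = 3, ± SD), with a log2 fold change of 1.49 (edgeR adjusted p = 4.55e-06). IFNB1, which encodes interferon beta, was at 1.80, 1.85 and 2.31 CPM in the shCTRL libraries and at 3.95, 6.55 and 4.36 CPM in the shCCN3 libraries (log2 fold change 1.31, edgeR adjusted p = 0.00118). The interferon signaling factors STAT2 and IRF9 had log2 fold changes of 0.44 and 0.54, and the factors CEBPB and CEBPD, which act downstream of interleukin-6, had 0.44 each, all with adjusted p-values of at most 0.00545.

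NFKB1 and RELA, subunits of NF-kB, rose less, with log2 fold changes of 0.29 and 0.18 (edgeR adjusted p = 0.031 and 0.0332), and the call for each was lost in 4 and 5 of the 6 fits that left out a library. LIF was the gene that fell, from 71.0 ± 3.39 CPM to 57.6 ± 2.84 CPM. IRF1, STAT3 and NR1H3 did not pass, with log2 fold changes of 0.08, 0.25 and 0.01. Without replicate 2 of shCCN3, STAT3 passed at 0.33 (edgeR adjusted p = 0.0024). TNF, named after its values were seen, had 2, 0 and 0 reads in the shCTRL libraries and 13, 12 and 20 reads in the shCCN3 libraries. IFNG and OSM had 0 reads in every library. These genes moved in the same 6 libraries as CFB, C3, C1S and SERPING1, and their part in the rise of those genes was not tested.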

How the data were processed

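RNA from 6 Hs578T libraries, 3 per group, was prepared by the authors with a stranded mRNA library kit and sequenced on a NovaSeq system. The authors deposited raw read counts for 46427 genes, with no normalization, and 0 rows name no gene. The submitters' processing notes name bcl2fastq 2.20.0, Trimmomatic, HISAT2 2.1.0, StringTie 2.1.3d and DESeq2 with GRCh38. Annotation, counting settings and use of the strand are not given in the sources used here, so values of overlapping genes and near-identical copies are uncertain.

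Columns were mapped by column names and sample titles. Counts were filtered by group and scaled by TMM, and shCCN3 was compared with shCTRL by edgeR 4.0.16 (R 4.3.3, quasi-likelihood test, Benjamini-Hochberg adjustment over 17419 genes), with no covariate. A floor of 3 reads is at most 0.0540 CPM, and this floor covers counting error only, while the intervals of fold changes come from the fit and include the spread between libraries. Ratios were tested with scipy 1.17.1. The scripts were tested on simulated data. The members and lists were chosen with earlier results of these data known.

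The 9 complement genes and CCN3 were named by rule. Other listed genes were named with an adjusted p under 0.05 and a mean of at least 1 CPM, and those named outside this rule (called genes below that mean, genes that did not pass and genes at 0 reads) were chosen after their values were seen. Alternatives were DESeq2 size factors, upper-quartile factors, no filter, at least 10 counts in every library, DESeq2 1.42.0, limma-voom (limma 3.58.1), a replicate block and leaving out each library. Some listed genes are not reported here, and list counts leave them out.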

Additional observations from a re-analysis of the deposited data

How the results depend on the processing

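Of 13 alternatives, each kept the direction and the call of C1S, C3, CFB, SERPING1 and CCN3, with log2 fold changes of 0.59 to 0.67, 1.02 to 1.20, 1.36 to 1.44, 1.22 to 1.36 and -1.12 to -1.09. The number of the 9 complement genes higher in shCCN3 cells was 4 or 5, and the number lower was 1 or 0. It was 0 with the replicate block and 0 to 1 over the fits that omit a library, at 0 without replicate 2 of shCTRL. The deviations of same-numbered libraries from their group means correlated at 0.0891, -0.0256 and -0.0657. Of the 6 libraries 2, those of replicate 1, correlated best with their own number. With 3 libraries per group, these values cannot show whether the libraries were prepared in pairs. With the replicate block 4887 in place of 5825 genes passed in edgeR, and CD59 had an adjusted p of 0.0572, C2 one of 0.0688, NFKB1 one of 0.054 and RELA one of 0.13. Without replicate 3 of shCTRL, the log2 fold change of C1R was 0.023 (edgeR adjusted p = 0.846), in a range of -0.056 to 0.023 over the fits that omit a library. NR1H3, C1RL and CSMD1, none of which passed, also changed sign, with ranges over those fits of -0.106 to 0.0856, -0.0832 to 0.0635 and -0.012 to 0.141, and NR1H3 was at -0.0031 with limma-voom. STAT3 passed without replicate 2 of shCCN3, with DESeq2 (adjusted p = 0.0293) and with at least 10 counts in every library (0.0482). The cause of these shifts was not tested. Depth limits CFI, C3 and SERPING1 most, with at most 490 reads in a library.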

Other observations

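Over the 6 libraries, the log2 CPM of C3 was most like that of THEMIS2 (Pearson r = 0.9998 across libraries), HEY1 (0.9993), HIP1R (0.9988), HSPA1B (0.9981) and TAGLN (0.998), of 13632 genes with a mean of at least 1 CPM. THEMIS2 averaged 7.28 ± 0.627 CPM in control and 11.8 ± 0.157 CPM in knockdown libraries (n = 3, ± SD), and HEY1 1.87 ± 0.183 and 3.89 ± 0.0381 CPM. TAGLN, which encodes an actin-binding protein of contractile cells, averaged 2.46 ± 1.14 and 37.7 ± 4.88 CPM. As the 6 libraries form 2 groups, 869 genes had an r of at least 0.95 with C3, and the values are given as a description.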
